A study of Rattus norvegicus with 18 samples.

Results

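The genes described here are 40 genes of the secretory pathway and the unfolded protein response, that is, the sensors, chaperones, disulfide-forming enzymes, translocation subunits and degradation factors of the endoplasmic reticulum (ER). They were chosen by symbol, and every probe set (a group of short probes for 1 transcript) that the array annotation gives exactly 1 of these symbols was taken. Of the 40 genes, 39 had such a probe set, 54 probe sets in all among 31042 that are not controls. Ern1 is named only. Of the 54, 52 had enough signal to be tested, which left at least 1 for each of the 39 genes, among 11407 genes tested in all. Where a gene had several probe sets, the one with the highest mean signal stands for it.

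The samples were 9 distal and 9 proximal scrapings of colonic mucosa, 1 of each from every one of 9 Sprague Dawley males, and each was hybridised to 1 Affymetrix rat array. All rats, and so both groups, were fed modified AIN-93G for 10 days and killed 6 h after a subcutaneous dose of azoxymethane, a colon carcinogen that alkylates DNA, at 15 mg per kg. No untreated rats were analysed here, so the values compare the regions after the dose and do not show what the dose changed. The labels describe an allocation to 2 groups without giving the group of each rat. A scraping holds several cell types, and in such bulk samples fewer cells of a type and less RNA per cell cannot be told apart.

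Proteins that a cell secretes or places in membranes enter the ER through the Sec61 channel, lose their signal peptide, and are folded, glycosylated and cross-linked by disulfide bonds there. When unfolded proteins accumulate, the sensors Ire1 (the product of Ern1), Perk (Eif2ak3) and Atf6 start the unfolded protein response: Ire1 splices the Xbp1 transcript, Perk slows translation and favours that of Atf4, and Atf6 is cut to release a transcription factor. Goblet cells, the mucin-secreting cells of the colon, carry a large load of such proteins and are known to depend on Xbp1 and Agr2.

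Several of these genes are known targets of Atf6 and Xbp1 through the ER stress response element (ERSE), searched on both strands as CCAAT, then 9 bases of any kind, then CCACG. The 5 stretches below, from the RefSeq promoters of rat assembly GRCr8, are shown because they hold this motif in the genes whose difference between the regions passed the test. Each is 5′ to 3′ on the strand of its gene, and capitals mark the 19 letters of each match. In Creld2 and at the second match of Hsp90b1 the motif lies on the opposite strand, so the capitals show its reverse complement.
Hspa5, chr3:38452953-38453011, plus strand: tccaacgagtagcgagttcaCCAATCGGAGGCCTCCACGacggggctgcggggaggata
Hsp90b1, chr7:23012327-23012489, minus strand: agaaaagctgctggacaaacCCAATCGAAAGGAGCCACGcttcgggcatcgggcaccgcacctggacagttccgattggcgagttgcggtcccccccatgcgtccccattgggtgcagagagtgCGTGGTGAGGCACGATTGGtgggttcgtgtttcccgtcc
Creld2, chr7:121789219-121789277, plus strand: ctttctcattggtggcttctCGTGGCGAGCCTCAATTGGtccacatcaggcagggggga
Dnajc3, chr15:102432514-102432572, plus strand: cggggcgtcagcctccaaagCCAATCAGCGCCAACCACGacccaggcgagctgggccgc
Xbp1, chr14:84604538-84604596, plus strand: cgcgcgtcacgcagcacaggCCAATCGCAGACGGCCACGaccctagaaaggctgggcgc
The match in Hspa5 starts 43 bases before the annotated start of the gene and that in Xbp1 starts 65 bases before it. In Hsp90b1 the matches start 176 and 72 bases before the start, in Dnajc3 133 and in Creld2 145.

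Between distal and proximal colon, 17 of the 39 genes differed at an adjusted p below 0.05 in limma's test over all probe sets (43.6%), against 30.8% of all genes tested. In the distal colon 10 were higher (25.6%, against 16.2% of all genes) and 7 were lower (17.9%, against 14.5%), while 22 did not pass. With rat as a block, which pairs the 2 arrays of an animal, 10 were higher (against 19.5% of all genes) and 12 lower (against 17.4%), so that the larger number was then the lower one. Without the block, the higher ones were the ER chaperones and cofactors Hspa5, Hsp90b1, Creld2, Manf and Dnajc3, the translocation subunits Sec61a1, Ssr1 and Ssr3, the transcription factor Atf4 and its target Asns. The lower ones were the sensors Eif2ak3 and Atf6, the transcription factor Xbp1, the oxidoreductases Pdia3 and Ero1a, the translocation subunit Sec61b and the signal peptidase subunit Spcs2. Both the median difference of the 39 genes and that of all genes were 0.01 on the log2 scale, distal minus proximal.

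The differences were small in size. The median size of the log2 difference was 0.20 in these genes and 0.19 in all genes, and only Asns reached 1.5-fold (1 gene, against 10.3% of all genes). Of the 17 that passed, 14 had the same direction in all 9 rats. In distal colon 9 genes were higher in every rat, against 11.4% of all genes, and 7 were lower in every rat, against 10.2%. The arrays of the 2 regions did not overlap for Sec61a1 and Ssr1 (2 of 39 genes, higher in distal, against 3.22% of all genes) and for Pdia3 and Ero1a (2 of 39, lower in distal, against 3.67%). Over both directions 6.89% of all genes did not overlap.

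**Figure D1:**
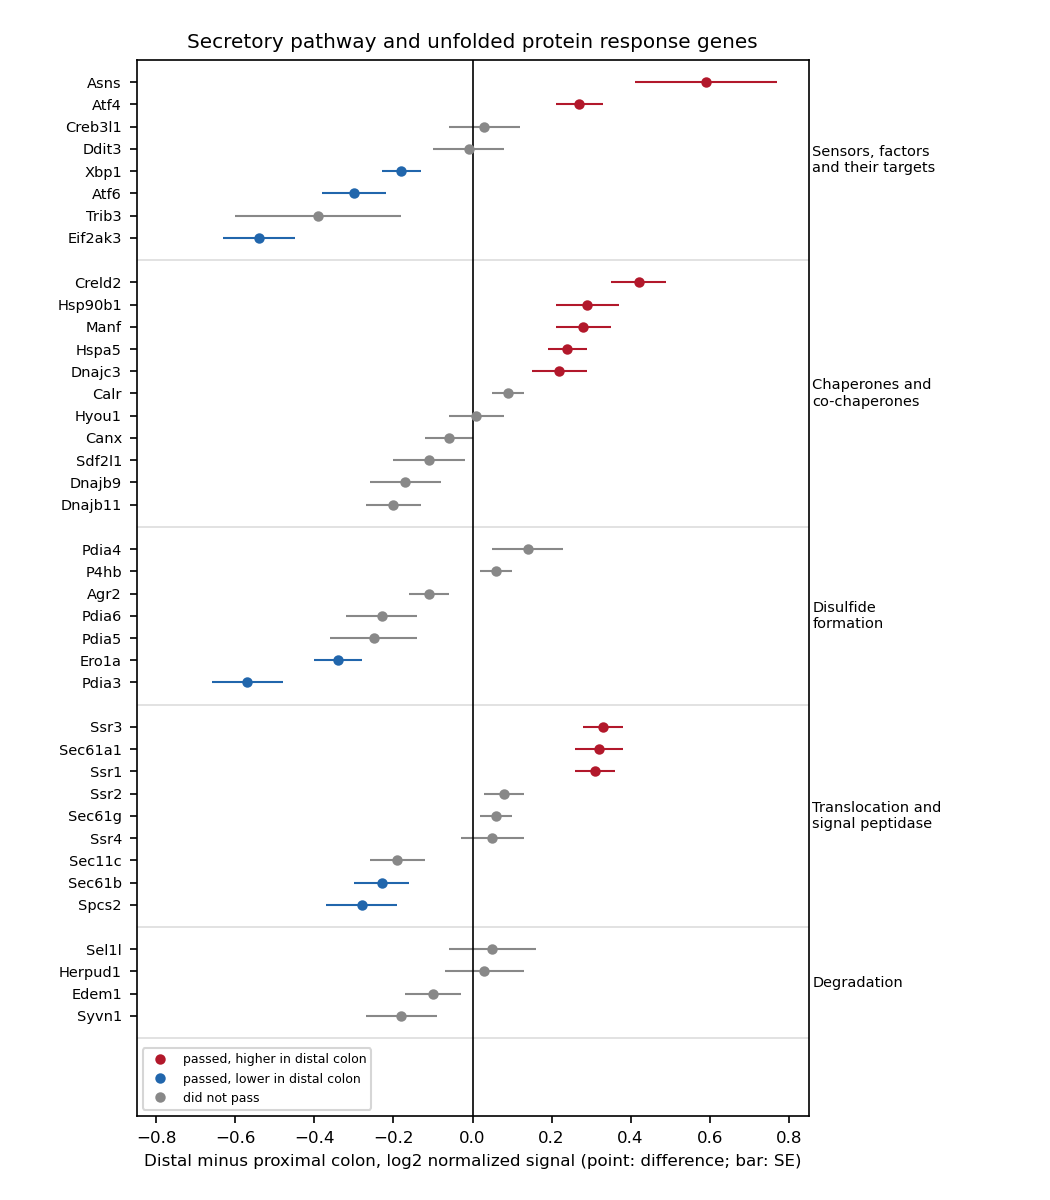
Difference between distal and proximal colon in log2 normalized signal for the 39 genes measured, grouped by role (points, with bars of 1 SE from limma, n = 9 rats). Red points passed the test and were higher in distal colon (10 genes), blue points passed and were lower (7 genes), and grey points did not pass.

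How the arrays were scaled bears on the number of calls. Trimmed means of the deposited signals were 210.3 to 341.2 in the distal arrays and 257.5 to 339.7 in the proximal arrays, and the values used here were quantile normalized, which gives every array the same distribution. With the deposited scaling kept, the median of all genes was -0.10 on the log2 scale in place of 0.01, and 1 of these genes passed as higher in distal (Creld2, against 3.94% of all genes) and 5 as lower (Eif2ak3, Atf6, Pdia3, Ero1a and Pdia6, against 13.6%). The genes higher in distal thus made up 16.7% of the calls there (22.5% over all genes) and 58.8% after quantile normalization (52.8%). With arrays centred on their medians they made up 72.7% (59.1% over all genes), where 8 were higher, against 15.5% of all genes, and 3 lower, against 10.8%. The share over all genes moved the same way as that of the secretory genes. The 10 genes that passed as higher in distal after quantile normalization still had positive differences of 0.11 to 0.50 with the deposited scaling, but 9 of them, all but Creld2, did not pass (adjusted p 0.121 to 0.534). Eif2ak3, Creld2, Pdia3 and Ero1a passed in each of the 20 alternative settings tried.

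**Figure D2:**
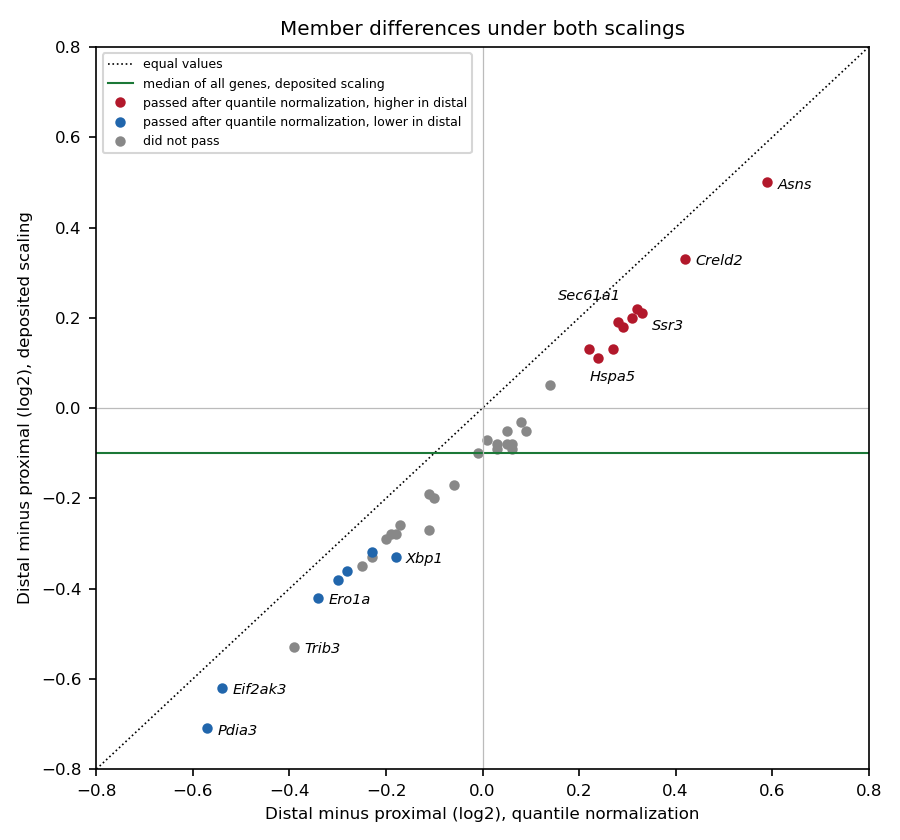
Log2 difference between distal and proximal colon after quantile normalization (horizontal axis) and with the deposited scaling kept (vertical axis), 1 point per gene, with genes that passed after quantile normalization in red (higher in distal) or blue (lower). The points run in parallel below the dotted line of equal values, and the green line marks the median of all genes with the deposited scaling, -0.10.

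Eif2ak3 and Atf6, the sensors with a probe set, were both lower in distal colon. Eif2ak3, which encodes the Perk kinase that phosphorylates the initiation factor eIF2α, had log2 signals of 8.82, 9.35 and 9.65 (lowest, median and highest) in the distal arrays and 9.58, 9.87 and 10.12 in the proximal arrays. The groups overlapped at their edges, and in each rat the distal array was the lower one. The difference was -0.54 ± 0.09 (n = 9 arrays a region), 1.45-fold lower in distal. Its limma adjusted p was 0.000224, and 5.36e-05 with rat as a block. Here and below, ± gives the SE of the fit without a block, which does not pair the 2 arrays of a rat. Atf6, the membrane-bound transcription factor, had 9.05, 9.33 and 9.49 in distal and 9.39, 9.58 and 9.96 in proximal arrays, again lower in distal in 9 of 9 rats. Its difference was -0.30 ± 0.08 (adjusted p = 0.0123), and with arrays centred on their medians it did not pass (adjusted p = 0.0557).

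Xbp1 encodes the transcription factor made from the mRNA that Ire1 splices, and its probe set was read as total mRNA, since nothing in the files separates the spliced form. Its log2 signals were 11.68, 11.79 and 11.93 in distal and 11.79, 11.99 and 12.20 in proximal arrays. The distal signal was the lower one in 9 of 9 rats by a small margin, -0.18 ± 0.05, 1.13-fold (adjusted p = 0.0158). Under neither other scaling did Xbp1 pass (0.0562 as deposited and 0.154 with arrays centred on their medians).

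Of the genes downstream of Perk, Atf4 and Asns were higher in distal colon in mRNA, while Ddit3 and Trib3, given below, did not pass. The activity of Perk and the Atf4 protein were not measured. Atf4, the factor whose translation rises when eIF2α is phosphorylated, had log2 signals of 11.89, 12.08 and 12.22 in distal and 11.46, 11.84 and 12.02 in proximal arrays. It was higher in distal in 9 of 9 rats, by 0.27 ± 0.06 (adjusted p = 0.00353), and was lost with arrays centred on their medians (0.0545) as well as with the deposited scaling (0.492). Asns, asparagine synthetase, a target of Atf4 in amino acid shortage, had 8.00, 8.76 and 9.21 in distal and 7.46, 8.00 and 8.67 in proximal arrays. This was the largest difference among the 39 genes, 0.59 ± 0.18 or 1.51-fold (adjusted p = 0.0166), and it was higher in distal in 9 of 9 rats with wide overlap between the groups. It did not pass without rat 6 (0.50, adjusted p = 0.0562) or without the proximal arrays of rats 3 and 6 (0.47, adjusted p = 0.0577).

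Ddit3, which encodes the pro-apoptotic factor Chop, a target of Atf4, had nearly the same median in both regions. Its log2 signals were 8.09, 8.37 and 8.66 in distal and 8.12, 8.39 and 8.69 in proximal arrays, a difference of -0.01 ± 0.09 (adjusted p = 0.975), with 4 of 9 rats higher in distal. Creb3l1, an ER-bound transcription factor of secretory cells, had a difference of 0.03 ± 0.09 (adjusted p = 0.852).

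The result for Trib3, a pseudokinase induced by Atf4 and Chop, turned on single arrays. Its log2 signals were 6.50, 6.82 and 7.11 in distal and 5.85, 7.41 and 7.65 in proximal arrays, and the low proximal values were those of rat 3 (5.85) and rat 6 (6.24). With all arrays the difference was -0.39 ± 0.21 and did not pass (adjusted p = 0.195). Without rat 3 it was -0.58 (adjusted p = 0.0181). With the proximal arrays of rats 3 and 6 left out, a setting chosen with earlier results of these data known, it was -0.71 (adjusted p = 7.18e-05). Both fits leave out low proximal values, which makes the difference more negative by construction, so their p-values do not test it. The other 2 probe sets of Trib3 also had negative differences that did not pass (adjusted p = 0.0536 and 0.533). Trib3 had the largest spread of the 39 genes, with an SD of 0.65 over the proximal arrays, and among the 39 genes the lowest mean signal, above that of 24.1% of all genes tested.

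Among the 11 chaperones and co-chaperones, 5 were higher in distal colon and 0 were lower (45.5% higher, against 16.2% of all genes). With the deposited scaling 1 was higher, Creld2 (against 3.94% of all genes). With rat as a block 5 were higher and 2 lower (against 19.5% and 17.4%). Creld2, a small ER protein induced under ER stress, had log2 signals of 8.75, 9.11 and 9.33 in distal and 8.55, 8.69 and 8.87 in proximal arrays. Rat 1 gave the single low distal value, and the other 8 distal arrays lay at or above 9.05, above every proximal array. The difference was 0.42 ± 0.07, 1.34-fold, with an adjusted p of 0.000156, higher in distal in 9 of 9 rats, and its adjusted p was at most 0.0445 in the alternative settings.

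Hspa5 encodes BiP, the abundant Hsp70 chaperone that binds unfolded chains and the sensors themselves. It had log2 signals of 11.49, 11.71 and 11.88 in distal and 11.31, 11.47 and 11.59 in proximal arrays, higher in distal in 9 of 9 rats. The difference of 0.24 ± 0.05 was 1.18-fold (adjusted p = 0.00315). Hsp90b1, the ER Hsp90 also called Grp94, had 10.87, 11.12 and 11.36 in distal and 10.63, 10.77 and 11.22 in proximal arrays. It too was higher in distal in all 9 rats, and the highest proximal array, that of rat 3, reached into the distal range. Its difference was 0.29 ± 0.08, 1.22-fold (adjusted p = 0.00854).

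Manf, a secreted ER stress-induced factor that binds BiP, had log2 signals of 10.25, 10.33 and 10.67 in distal and 9.83, 10.09 and 10.37 in proximal arrays. It was higher in distal in 9 of 9 rats, by 0.28 ± 0.07 (adjusted p = 0.00498). Dnajc3, the co-chaperone p58IPK that restrains Perk, had 9.95, 10.07 and 10.34 in distal and 9.57, 9.84 and 10.08 in proximal arrays. It was higher in distal in 8 of 9 rats, by 0.22 ± 0.07 (adjusted p = 0.0183), and with arrays centred on their medians it did not pass (0.0625).

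The other 6 chaperone genes did not pass. The lectin chaperones Calr and Canx had differences of 0.09 ± 0.04 (adjusted p = 0.131) and -0.06 ± 0.06 (0.558), and the other 2 probe sets of Canx gave positive differences that did not pass either. Hyou1, the large Hsp70-like chaperone Grp170, had 0.01 ± 0.07 (0.91), and Sdf2l1, a BiP cofactor, had -0.11 ± 0.09 (0.406). The BiP co-chaperones Dnajb9 and Dnajb11 had differences of the opposite sign to that of Hspa5 that did not pass. Dnajb11 was the lower one in distal in 9 of 9 rats at -0.20 ± 0.07 (adjusted p = 0.0515, and 0.0207 with rat as a block), and Dnajb9 in 8 of 9 at -0.17 ± 0.09 (0.189, and 0.0248 with the block).

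**Figure D3:**
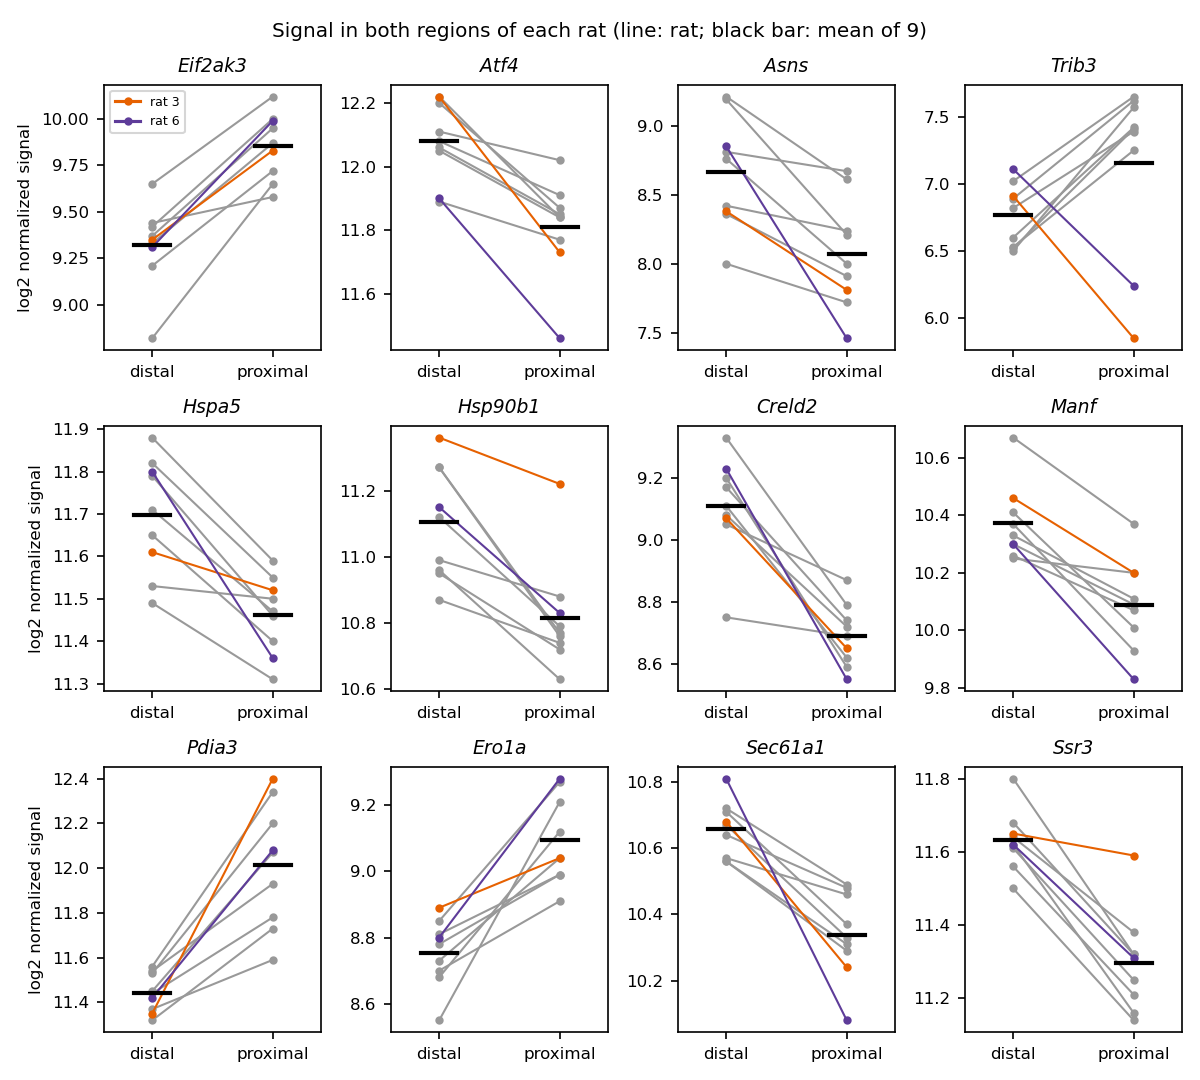
Log2 normalized signal of 12 genes in distal (left) and proximal (right) colon, each line joining the 2 arrays of 1 of the 9 rats. The lines of Hspa5, Creld2 and Sec61a1 slope one way and those of Eif2ak3, Pdia3 and Ero1a the other in all 9 rats, while the proximal Trib3 values of rats 3 and 6 lie apart at 5.85 and 6.24.

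Of the 7 genes for disulfide formation, 0 were higher and 2 were lower in distal colon (0% and 28.6%, against 16.2% and 14.5% of all genes). There were 3 lower with the deposited scaling (against 13.6% of all genes) and 4 with rat as a block (against 17.4%). Pdia3, the disulfide isomerase that works with calnexin and calreticulin on glycoproteins, had log2 signals of 11.32, 11.44 and 11.56 in distal and 11.59, 12.07 and 12.40 in proximal arrays. Every distal array lay below every proximal one, and the proximal arrays were more spread (SD 0.28, against 0.09 in distal). The difference was -0.57 ± 0.09, 1.49-fold lower in distal (adjusted p = 9.04e-05). A second probe set of Pdia3, of weaker signal, had a difference of -0.08 and did not pass (adjusted p = 0.593).

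Ero1a, the oxidase that recharges the disulfide isomerases, had log2 signals of 8.55, 8.78 and 8.89 in distal and 8.91, 9.04 and 9.28 in proximal arrays. The groups again did not overlap, though the highest distal and lowest proximal arrays were closer together than 1 SD of either region. Its difference was -0.34 ± 0.06, 1.27-fold lower in distal (adjusted p = 0.000561), and its second probe set, at -0.13, did not pass (0.407).

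The isomerases Pdia6 and Pdia5 had differences of -0.23 ± 0.09 (adjusted p = 0.0509) and -0.25 ± 0.11 (0.111), negative in 9 and 8 of 9 rats. Both passed with rat as a block, at 0.00451 and 0.024. Pdia4 had 0.14 ± 0.09 (0.266), positive in 8 of 9 rats, and without rat 3, whose proximal array was the highest at 9.82, it was 0.22 (0.0255). P4hb, the isomerase Pdi itself, had 0.06 ± 0.04 (0.198). Agr2, the isomerase-family protein that goblet cells need for mucin, had log2 signals of 13.28, 13.49 and 13.62 in distal and 13.36, 13.64 and 13.68 in proximal arrays. Its difference was -0.11 ± 0.05 and did not pass (0.131), although it was negative in 8 of 9 rats.

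Of the 9 genes of translocation and the signal peptidase, 3 were higher and 2 were lower in distal colon (33.3% and 22.2%, against 16.2% and 14.5% of all genes). With the deposited scaling 0 passed in either direction (against 3.94% higher and 13.6% lower). With rat as a block 3 were higher and 3 lower (against 19.5% and 17.4%). Sec61a1 encodes the channel subunit of the Sec61 translocon and had log2 signals of 10.56, 10.67 and 10.81 in distal and 10.08, 10.33 and 10.49 in proximal arrays, with no overlap. The difference was 0.32 ± 0.06, 1.25-fold (adjusted p = 0.000274), and a second probe set gave 0.15 (0.16). Sec61b, a small subunit of the same channel, went the other way, with 10.15, 10.66 and 10.80 in distal and 10.63, 10.88 and 10.98 in proximal arrays. Its difference of -0.23 ± 0.07 (adjusted p = 0.0235) was negative in 7 of 9 rats, and the lowest distal value was that of rat 3. The Sec61b call was lost without rat 1 (adjusted p = 0.0507), rat 5 (0.0519) or rat 6 (0.0546), with the proximal arrays of rats 3 and 6 left out (0.068), and under both other scalings (0.0981 and 0.19). Without rat 3 its difference was -0.15 (0.0309). Sec61g, the remaining small subunit, had 0.06 ± 0.04 (0.278).

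Ssr1 and Ssr3 encode the alpha and gamma subunits of the translocon-associated protein complex, which sits beside the channel. Ssr1 had log2 signals of 10.78, 10.89 and 11.00 in distal and 10.41, 10.61 and 10.73 in proximal arrays, without overlap. Its difference was 0.31 ± 0.05 (adjusted p = 0.0002), and its second probe set gave 0.33 (0.0231). Ssr3 had 11.50, 11.62 and 11.80 in distal and 11.14, 11.31 and 11.59 in proximal arrays, higher in distal in 9 of 9 rats by 0.33 ± 0.05 (0.000112). Of its other probe sets, one passed in the same direction (0.23, adjusted p = 0.029) and one did not pass (0.12, 0.565). The beta and delta subunits, Ssr2 and Ssr4, had 0.08 ± 0.05 (0.232) and 0.05 ± 0.08 (0.699).

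Spcs2, a subunit of the signal peptidase that removes signal peptides, had log2 signals of 9.53, 9.84 and 10.02 in distal and 9.82, 10.05 and 10.59 in proximal arrays. Its difference of -0.28 ± 0.09 (adjusted p = 0.0332) was negative in 7 of 9 rats. The call was lost in 8 of the 20 alternative settings: without rat 1 (adjusted p = 0.0701), rat 3 (0.0977), rat 6 (0.0753) or rat 7 (0.0598), without the proximal arrays of rats 3 and 6 (-0.16, 0.0935), without the 3 arrays highest in smooth muscle markers (0.114), and under both other scalings. Sec11c, a catalytic subunit of the same enzyme, had -0.19 ± 0.07 (0.0611, and 0.0481 with rat as a block).

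Of the 4 genes of ER-associated degradation, which returns misfolded proteins to the cytosol for the proteasome, 0 passed in either direction. Of all genes, 16.2% were higher and 14.5% lower, and a list of 4 is too short to set 0 against these shares. Herpud1, a membrane scaffold of the pathway, had 0.03 ± 0.10 (adjusted p = 0.879), and Sel1l, the partner of the ligase Hrd1, had 0.05 ± 0.11 (0.793). Edem1, which helps to select misfolded glycoproteins, had -0.10 ± 0.07 (0.306). Other probe sets of Edem1 disagreed in sign, at -0.23 (0.0852) and 0.19 (0.201), and did not pass. Syvn1, which encodes Hrd1, had log2 signals of 9.29, 9.61 and 10.08 in distal and 9.68, 9.78 and 10.08 in proximal arrays. Its difference of -0.18 ± 0.09 did not pass (0.122), and without rat 3 it was -0.24 (0.0243).

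The spread between rats was small for most of these genes. The median SD over the 9 arrays of a region was 0.14 in distal and 0.16 in proximal colon, against 0.21 and 0.22 for all genes. The 39 genes were also bright on the array, with a median mean log2 signal of 10.50, against 8.41 for all genes, and 35 of them lay above the median of all genes. The lowest SDs were those of Ssr2 in distal (0.05) and Calr in proximal colon (0.04), and the highest were those of Asns in distal (0.41) and Trib3 in proximal colon (0.65).

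**Figure D4:**
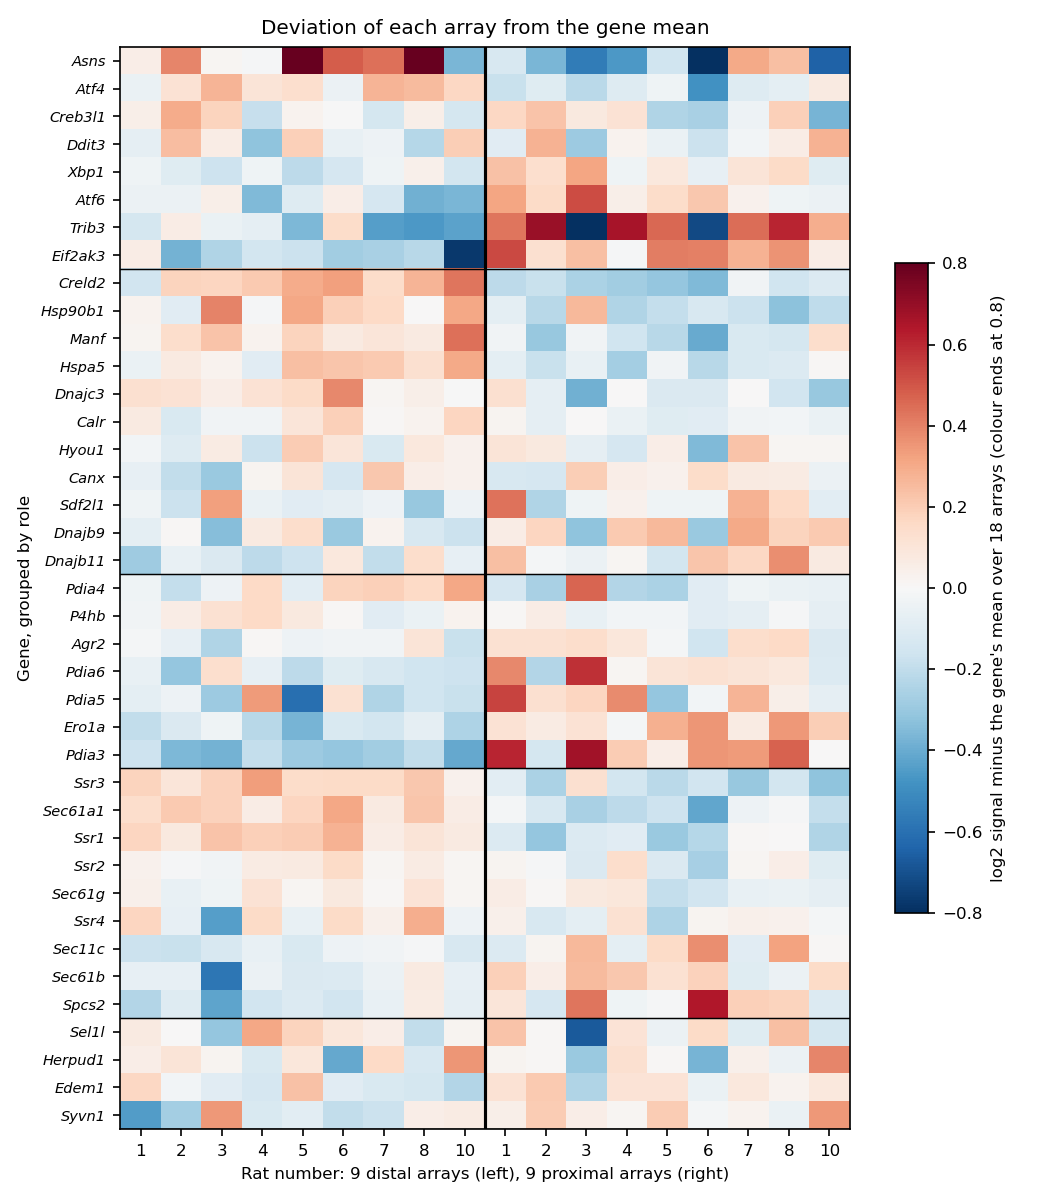
Deviation of each array from the gene's mean log2 signal over 18 arrays, with genes in rows grouped by role and the 9 distal arrays left of the 9 proximal arrays. The chaperones from Creld2 to Dnajc3 and the subunits Ssr3, Sec61a1 and Ssr1 are mostly red at left and blue at right, Eif2ak3, Ero1a and Pdia3 mostly the reverse, and rat 3 has single arrays that stand out for Trib3, Pdia4, Sec61b and Sel1l.

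Across rats, 5 pairs of these genes were correlated within each region, 10 relations in all, by exact permutation of pairings (two-sided, n = 9 rats), and 0 passed after adjustment. The smallest p was that of Ddit3 and Trib3 in proximal colon, with Pearson's r of 0.72 (exact p = 0.0367, adjusted 0.367) and Spearman's rho of 0.62 (exact p = 0.0857, adjusted 0.592). It was 0.95 without rats 2 and 10, the 2 farthest in Ddit3, and 0.04 without rats 3 and 6, so it rests on rats 3 and 6. Hspa5 and Hsp90b1 had r of 0.51 in distal and 0.26 in proximal colon (exact permutation, adjusted p = 0.548 and 0.745), and Xbp1 and Hspa5 had -0.41 and 0.25 (0.548 and 0.745).

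Promoter windows from 250 bases before to 50 after the start were held for 33 of the 40 genes. Manf, Pdia3, Pdia6, Ero1a, Sec61a1 and Atf6 are among those named only. The ERSE was found in 7 of the 33 (21.2%), namely Xbp1, Hspa5, Hsp90b1, Calr, Canx, Creld2 and Dnajc3. Over all genes with a window it was in 21 of 27457 (0.0765%), these 7 included. Several of the 33 are known targets through this element, so that contrast was fixed before the search and is no result about them. Of these 7 genes, 4 were higher in distal colon, 1 was lower (Xbp1) and 2 did not pass (Calr and Canx), against 16.2% of all genes higher and 14.5% lower. With the deposited scaling Creld2 alone of the 7 passed. Of the 7 other tested genes that hold the ERSE, 4 passed, 1 of them higher in distal. The second form of the element, ERSE-II, was searched as ATTGG, then 1 base of any kind, then CCACG. It was in 3 of the genes, Hyou1, Dnajb11 and Herpud1, against 0.0619% of all genes with a window, and 0 of the 3 passed. The Xbp1 element TGACGTGG (UPRE) was in 1 of the genes, Hyou1 (0.681% of all genes with a window), where it shares letters with a match of ERSE-II. The Atf4 element TGATGNAA (CARE) was in 2, Trib3 and Herpud1 (4.16%). A match is a description of the letters, and binding was not measured.

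The wider pathway was taken from lists of 157 further genes, of which 143 were tested, and 33 were higher and 16 lower in distal colon (23.1% and 11.2%, against 16.2% and 14.5% of all genes). With the deposited scaling these counts were 3 and 10, against 3.94% and 13.6% of all genes. Of 25 other folding genes, 5 were higher and 5 lower (20% each), and 1 and 3 with the deposited scaling. Tmx1, a membrane-bound thioredoxin-like oxidoreductase, was higher in distal by 0.59 ± 0.08 (adjusted p = 1.98e-05) without overlap. Hspa13, an Hsp70-like protein of microsomes, was lower by a difference of -0.60 ± 0.10 (0.000142), and Dnajc10, the reductase ERdj5, by -0.42 ± 0.09 (0.00115), each in 9 of 9 rats. Ero1b, the other Ero1 oxidase, was higher in distal at 0.83 ± 0.24 (0.0162) and was lost with the deposited scaling, while Fkbp11, a prolyl isomerase of secretory cells, had -0.50 ± 0.14 (0.0116). Mogs, the glucosidase that starts the trimming of N-glycans, was higher by 0.40 ± 0.08 (0.000809) and Txndc12, a thioredoxin-like protein, by 0.29 ± 0.09 (0.0179), both lost with the deposited scaling. Erp44 was lower at -0.20 ± 0.07 (0.0439), a call lost in 15 of the 20 alternative settings.

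Vesicle traffic between the ER and the Golgi had the highest share of higher calls among these lists. Of 37 genes 13 were higher (35.1%, against 16.2% of all genes) and 4 lower (10.8%, against 14.5%) in distal colon. The counts were 1 and 3 with the deposited scaling, against 3.94% and 13.6% of all genes. Preb, the exchange factor Sec12 that starts COPII coat assembly, was higher in distal by 0.54 ± 0.08 (adjusted p = 5.21e-05, 9 of 9 rats). Kdelr3, a receptor that returns ER proteins, was higher by 0.51 ± 0.14 (0.00998), and Sec23b, a coat subunit, by 0.37 ± 0.06 (9.04e-05), both lost with the deposited scaling. Sec16b, a protein of ER exit sites, had log2 signals of 6.32, 7.64 and 7.99 in distal and 7.85, 8.50 and 9.07 in proximal arrays. Its difference was -1.10 ± 0.19, 2.14-fold lower in distal in 9 of 9 rats (0.000289). Mia3, the cargo receptor Tango1, was lower without overlap (-0.27 ± 0.05, 0.000725), but did not pass with the mean of its probe sets (0.0811). Arfgap3 was higher by 0.32 ± 0.08 (0.00703) and was lost with the deposited scaling. Tmed3, a cargo receptor of the p24 family, was lower at -0.33 ± 0.10 (0.0184) and Bet1, a SNARE protein, at -0.20 ± 0.07 (0.04). Bet1 lost its call in 12 of the 20 settings and Tmed3 in 2, with arrays centred on their medians and without rat 8.

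Of 35 other stress response genes, 9 were higher and 2 lower in distal colon (25.7% and 5.71%, against 16.2% and 14.5% of all genes). The counts were 1 and 2 with the deposited scaling, against 3.94% and 13.6% of all genes. The tRNA synthetase genes Gars1 and Aars1 were higher by 0.60 ± 0.11 (adjusted p = 0.000553) and 0.37 ± 0.10 (0.0121), and the serine synthesis enzyme Phgdh by 0.59 ± 0.08 (1.27e-05), without overlap. Psat1, the next enzyme of serine synthesis, went the other way at -0.63 ± 0.17 (0.0105), lower in 8 of 9 rats. Nupr1, a stress-induced chromatin protein, had log2 signals of 9.46, 10.19 and 10.55 in distal and 10.81, 11.26 and 11.68 in proximal arrays, -1.08 ± 0.12 and 2.12-fold lower in distal without overlap (1.87e-06). Phgdh, Psat1 and Nupr1 passed in each alternative setting, and Gars1 and Aars1 did not pass with the deposited scaling. Cebpb, a transcription factor that can be induced under ER stress, was higher by 0.45 ± 0.14 (0.0204). It was lost in 4 settings: as deposited, without rat 3, without the 3 arrays highest in smooth muscle markers, and with the proximal arrays of rats 3 and 6 left out.

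Of 26 other translocation genes 3 were higher and 3 lower (11.5% each), and of 20 other degradation genes 3 were higher and 2 lower (15% and 10%), all below the 16.2% and 14.5% of all genes. As deposited, 0 were higher and 1 lower in each list, against 3.94% and 13.6% of all genes. Srp72, a protein of the signal recognition particle, was higher in distal by 0.45 ± 0.06 without overlap (adjusted p = 1.52e-05), Tusc3, an oligosaccharyltransferase subunit, by 0.39 ± 0.10 (0.009) and Sec61a2, a second channel subunit, by 0.28 ± 0.07 (0.00801). These 3 were lost with the deposited scaling. Srp9, of the same particle, was lower at -0.31 ± 0.08 (0.0105), Ostc, of the oligosaccharyltransferase, at -0.25 ± 0.07 (0.0154) and Tram1, a protein beside the channel, at -0.13 ± 0.04 (0.0211). Srp9 and Ostc lost their calls in 2 settings each, both with arrays centred on their medians, Srp9 as deposited and Ostc without rat 5, and Tram1 in 9. Among degradation genes, Ubxn4 was higher by 0.29 ± 0.05 (adjusted p = 0.000248), Man1b1, an ER mannosidase, by 0.26 ± 0.05 (0.000605) and Ube2j2, a ubiquitin-conjugating enzyme, by 0.22 ± 0.06 (0.00858), and these 3 too were lost with the deposited scaling. Ube2j2 was also lost with arrays centred on their medians (0.0648). Selenos, a selenoprotein of the degradation complex, was lower at -0.30 ± 0.06 in 9 of 9 rats (0.00133), and Erlec1, a lectin, at -0.21 ± 0.07 (0.0428), a call lost in 13 settings.

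Some marker genes of cell types also differed between the regions. For the counts below, the shares over all genes were 16.2% higher and 14.5% lower in distal colon. The 7 epithelial markers summed to 53517 to 56230 units of signal in distal and 52151 to 60885 in proximal arrays. Of the 7, 2 were lower in distal, Cdx2 (-0.63) and Vil1 (-0.43). Goblet cell markers summed to 36821 to 46293 in distal and 40555 to 49803 in proximal arrays. Of 11 tested 2 were higher in distal (Best2, 1.55, and Tff3, 0.41) and 5 were lower, among them Spink4 (-2.83) and Zg16 (-1.87). The median of the 11 was -0.04, and Clca1, the goblet marker of highest mean signal, did not pass (0.03, adjusted p = 0.707). Of 7 plasma cell markers, those of the other highly secretory cell type, 0 were higher and 1 was lower, Jchain (-1.47 ± 0.40, adjusted p = 0.00944). The other 6 did not pass, and the differences of the 7 ran from -1.47 to 1.08 with a median of 0.03. Their sums were 2305 to 4055 in distal and 2530 to 3951 in proximal arrays. Absorptive cell markers summed to 34792 to 49835 in distal and 55355 to 72214 in proximal arrays, and of 12 tested 2 were higher in distal (Ceacam1, 0.96, and Guca2b, 0.84) and 7 were lower, among them Car1 (-2.49) and Slc9a3 (-1.92). Enteroendocrine markers summed to 1329 to 2558 in distal and 3738 to 7251 in proximal arrays, and 0 of 8 were higher and 5 lower, among them Chga (-2.35) and Chgb (-2.16). The sums did not overlap between the regions for either list. The sums have no detection threshold, so they do not show that a cell type was present in an array. The part of these markers' cell types in the differences of the secretory genes was not tested.

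Smooth muscle markers summed to 15157 in the distal array of rat 3, 14991 in that of rat 7 and 74195 in the proximal array of rat 3, against 2438 to 4072 in the other distal and 2832 to 6936 in the other proximal arrays. Fibroblast markers ranged from 1002 to 16430 in distal and from 899 to 24354 in proximal arrays, and leukocyte markers from 5249 to 10097 in distal and from 4144 to 9540 in proximal arrays. With all arrays, 0 of the smooth muscle and fibroblast markers passed, and of 9 leukocyte markers 1 was higher in distal, Cd14 (0.57). Of all genes, 16.2% were higher and 14.5% lower there. In the fit without the 3 arrays highest in smooth muscle markers, 7 of 10 fibroblast markers were lower in distal (median of the list -0.92). There 1 of 11 smooth muscle markers was lower too, and 0 of either list were higher. Without those 3 arrays, 11 of the 39 genes were higher and 9 lower in distal colon, against 10 and 7 with all arrays, while 30.7% of all genes passed there, 15.2% higher and 15.4% lower. Trib3 (-0.54, adjusted p = 0.0333), Pdia4 (0.21, 0.0486), Pdia6 (-0.21, 0.0436) and Syvn1 (-0.24, 0.0386) then passed, and Spcs2 did not. Among the arrays left out, the proximal array of rat 3 held the lowest proximal Trib3 value and the highest proximal Pdia4 value.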

How the data were processed

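Expression was measured on 18 Affymetrix rat arrays. The authors deposited linear intensities from MAS5, as the submitters' processing notes say, for 31099 probe sets. Which MAS5 version and scaling target they used is not stated in these sources. No column (0) was without a sample. Rat 9 was not analysed here. From the 31042 probe sets that are not controls, log2(signal + 16) was computed and quantile normalized, so that folds of dim genes are understated. The 30% with the lowest mean (log2 signal below 5.54) were left out, which left 21729. Trimmed means left out 2% at each end. Symbols came from the platform annotation, which can be old: 20826 probe sets have 1 symbol, 436 several and 9780 none here, and none was named from a probe set with several.

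Distal minus proximal was tested on all arrays without a block with limma 3.58.1 in R 4.3.3 (lmFit, eBayes with an intensity trend, two-sided, Benjamini-Hochberg over all probe sets tested), and checked on simulated data. Every adjusted p of a single gene is limma's, and SEs are moderated. Other values used Python 3.11.15, numpy 2.4.6, pandas 2.3.3 and matplotlib 3.10.9. Summed marker signals are sums of normalized linear signal. The number of arrays limits the precision.

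Arrays that share a rat number came from 1 animal, per the labels, so the numbers pair them. Deviations from the region means had a median correlation of 0.23 within rats (0.00095 to 0.57, and 6 of 9 over 0.1) and of -0.03 between rats. At most 0.0064% of values were identical in any of 153 pairs of arrays. The genes, lists, motifs and alternatives were chosen with earlier results of these data known. The text names every member, and of each other list up to 4 genes in each direction that passed with the largest differences, plus, of each marker list, up to 2 in each direction. Promoter windows are from RefSeq, assembly GRCr8: 33469 windows of 27457 genes. Protein sequences were not used here.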

Additional observations from a re-analysis of the deposited data

Results flagged for a closer look

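A single array lay far from the other 8 of its region for 9 of the 78 gene and region groups examined among these genes. About 1 in 20, or 3.9, would be met if values were normally distributed and the groups independent. The groups share arrays, and both arrays of rat 3 recur below, so the count cannot be set against chance. In log2 signal, Hsp90b1 was high in the proximal array of rat 3 (11.22, next 10.88), and so was Pdia4 (9.82, next 9.32), while Sel1l was low in that array (7.43, next 7.96). In the distal array of rat 3, Sdf2l1 was high (9.15, next 8.79), and Sec61b (10.15, next 10.61) and Ssr4 (11.06, next 11.43) were low. Both arrays of rat 3 were among the 3 highest in smooth muscle markers, and the part of this in the values was not tested. Creld2 was low in the distal array of rat 1 (8.75, next 9.05), Manf was high in that of rat 10 (10.67, next 10.46) and Dnajc3 was high in that of rat 6 (10.34, next 10.11).

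Among 106 groups of other genes named, 4 had such an array. Nupr1 was low in the distal array of rat 10 (9.46, next 10.13). Erp44, which retains proteins in the early secretory pathway, was high in the proximal array of rat 6 (10.14, next 9.84), Arfgap3, a regulator of coat disassembly, in that of rat 10 (10.55, next 10.22), and the smooth muscle marker Mylk in that of rat 3 (12.92, next 11.13).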

How the results depend on the processing

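In place of 17 genes, 6 differed with the deposited scaling, 5 of them among the 17, against 17.6% of all genes. With arrays centred on their medians 11 differed, all among the 17, against 26.3% of all genes. With the deposited scaling 1 was higher in distal (against 3.94%) and the median difference of the genes was -0.09. With arrays centred on their medians 3 were lower in distal (against 10.8%). With rat as a block, which pairs the 2 arrays of an animal, 10 were higher and 12 lower (36.8% of all genes passed), adding Dnajb9, Dnajb11, Pdia5, Pdia6 and Sec11c, and no other call among the 39 genes changed. Leaving out each rat in turn gave 14 to 21 genes, against 3015 of 11417 to 3661 of 11382 of all genes.

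Among genes that did not pass, signs turned. With the deposited scaling, Creb3l1 was -0.08, Hyou1 -0.07, Calr -0.05, P4hb -0.09, Sec61g -0.08, Ssr2 -0.03, Ssr4 -0.08, Herpud1 -0.09, Sel1l -0.05, Clca1 -0.12 and Krt8 -0.10. With arrays centred on their medians Ddit3 was 0.04. With the mean of a gene's probe sets Canx was 0.10, and Tram1, which had passed as lower in distal, was 0.02. Without the proximal arrays of rats 3 and 6, Hyou1 was -0.04, Herpud1 -0.07 and Sel1l -0.02, and without the 3 arrays highest in smooth muscle markers Herpud1 was -0.03. Leaving out each rat, Ddit3 ran from -0.05 to 0.04, Creb3l1 from -0.002 to 0.07, Hyou1 from -0.04 to 0.06, Herpud1 from -0.01 to 0.06 and Clca1 from -0.004 to 0.06. The cause was not tested.

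Over genes and alternatives, 699 values of the 39 genes kept direction and side of the threshold, 30 lost a call, 27 gained one and 24 turned sign. Of 33 other pathway genes covered by the naming rule that had passed, 20 did not with the deposited scaling, and 10 passed in every alternative.

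The number of arrays, 9 a region, limits the precision. Quantile normalization removes any overall shift between the regions, so calls of small size depend on it.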
